A study of Mus musculus with 6 samples.

Results

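Genes for the extracellular matrix and for the stromal cells that make it were examined in RNA-Seq libraries of CD11B+ cells isolated from injured mouse kidneys. The set comprises 38 genes chosen by symbol, and all 38 were found among the 46603 genes counted. They cover 5 fibrillar collagen chains, 3 collagen VI chains, 9 basement membrane genes, 3 small leucine-rich proteoglycans, 5 matricellular proteins, 5 genes of elastic fibres and their crosslinking, 3 surface receptors of fibroblasts and pericytes, and 5 genes of smooth muscle and renin cells. CD11B is the integrin alpha M chain of monocytes, macrophages, granulocytes and NK cells, and the sort does not select for collagen-producing cells.

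All 6 mice were 10 to 12 week old males carrying Rosa26-LSL-RARaT403X, a truncated RARα that acts as a dominant negative once Cre removes a stop cassette. In 3 PTEC DN RAR mice (PEPCK CRE+) Cre is driven by the PEPCK promoter in proximal tubular epithelial cells (PTECs), and the 3 mice without the driver (PEPCK CRE-) are called Cre– controls here. The PEPCK-Cre line has a mixed 129svJ and C57BL/6 background and the allele a C57BL/6 background. Both genotypes underwent IRI-AKI (acute kidney injury from clamping of both renal pedicles for 28 minutes), and cells were collected with magnetic beads on day 3, giving 1 library per mouse. The genetic change is therefore placed in an epithelium that the sort does not select, and whether any recombination took place in the sorted cells was not measured here.

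The extracellular matrix has an interstitial part and a basement membrane part. In the interstitium, fibroblasts and pericytes secrete fibrillar collagens I, III and V, collagen VI, fibrillins and small proteoglycans. The basement membranes under tubules, glomeruli and vessels are sheets of collagen IV and laminin joined by nidogens, and are made by epithelial, endothelial and mural cells. In the kidney, PDGFRβ-positive pericytes and fibroblasts are the known source of the myofibroblasts that deposit scar after injury.

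Library totals ran from 29318041 to 46517005 counts, and 3 counts corresponded to between 0.0636 and 0.101 CPM, the count scaled by library size and TMM that is used throughout. The 6 macrophage markers (Itgam, which encodes CD11B, with Adgre1, Csf1r, C1qa, C1qb and Cd68) summed to 12747 to 13738 CPM in Cre– controls and 10787 to 13625 CPM in PTEC DN RAR libraries (0 higher and 2 lower of 6), so that macrophage transcripts were abundant in each library. Of the 2 lower genes one was Itgam itself, the gene of the sorted marker, which measured 1737, 1959 and 1995 CPM in Cre– controls and 1366, 1303 and 980 CPM in PTEC DN RAR libraries (log2 fold change -0.64, adjusted p = 0.00818), and the other was Cd68 (-0.44). Of 25 pan-leukocyte genes 0 were higher and 7 lower, and their sum was 17405 to 18217 CPM and 13898 to 16369 CPM. Beside them stood markers of other kidney cells. The 10 endothelial markers summed to 93.9 to 139 CPM in Cre– controls and 281 to 343 CPM in PTEC DN RAR libraries, and the 10 proximal tubule markers to 809 to 911 CPM and 1983 to 2850 CPM. All 20 of these genes were higher in PTEC DN RAR mice. Podocyte markers summed to 153 to 186 and 262 to 287 CPM (4 of 6 higher), and mesangial and mural markers to 33.7 to 52.3 and 68.9 to 93.3 CPM (4 of 5 tested higher). The part of these cells in the results that follow was not tested. In bulk libraries, a change in the number of cells of a type and a change in RNA per cell cannot be told apart.

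Most stromal and matrix genes were higher in PTEC DN RAR libraries, by about 2-fold, and a single gene, Thbs1, was strongly lower. Of the 38 genes, 37 passed the filter on low counts. Of these, 23 were higher (62.2%), 1 was lower and 13 did not pass an adjusted p of 0.05 in edgeR's quasi-likelihood test. Over all 15440 genes tested, 23.6% were higher and 17.1% were lower, 40.6% together. The median log2 fold change was 0.98 over the 37 genes and 0.04 over all genes. In 21 of the 37 every PTEC DN RAR library lay above every Cre– control, as did 29.2% of all genes, and in Thbs1 every one lay below, as in 24.2% of all genes. The libraries of both genotypes thus did not overlap in 22 of 37 genes of the set and in 53.4% of all genes. Without Cre– control replicate 3, 12 of 38 genes tested were higher, and the share over all genes fell as well, from 23.6% to 15.2%. Scaling on 25 pan-leukocyte genes in place of TMM (trimmed mean of M values) moved the median of all genes to 0.24, with 4731 higher and 737 lower in place of 3640 and 2636, and 26 of the 37 were then higher, beside 30.6% of all genes.

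**Figure D1:**
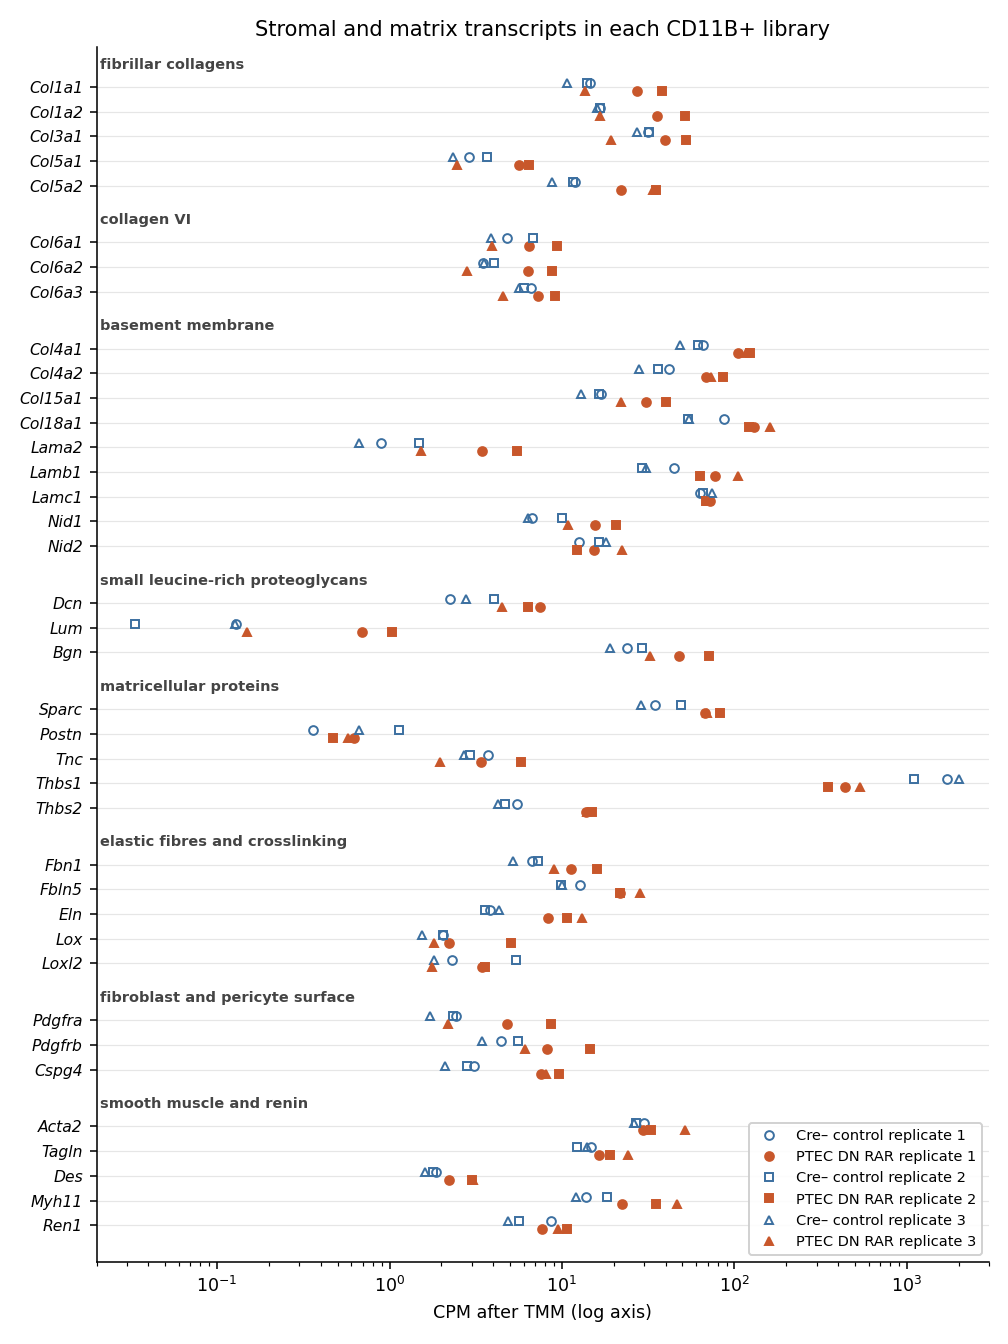
Level of each gene in each library in CPM after TMM on a log axis, grouped by role, with open blue symbols for the 3 Cre– controls and filled orange symbols for the 3 PTEC DN RAR mice. Thbs1 stands alone at 1108 to 1996 CPM in controls and 350 to 533 CPM in PTEC DN RAR mice, and most other genes shift to the right.

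Without Thbs1, the other 37 genes together took 608, 580 and 499 CPM in Cre– controls, against 955, 1124 and 1008 CPM in PTEC DN RAR mice. Levels can be compared between genes only per length, and CPM were divided by the length of the longest protein-coding transcript in kilobases (kb) for this purpose. In Cre– controls Thbs1 measured 275 CPM per kb, followed by Sparc at 16.3, Acta2 at 13.6, Col18a1 at 11.6 and Bgn at 9.92 CPM per kb. Lamc1 at 8.88 and Col4a1 at 8.82 CPM per kb came next and differed by less than their spread between controls. The lowest were Lama2 at 0.105 and Lum at 0.0393 CPM per kb. In PTEC DN RAR mice the order began with Thbs1 at 75.2, Sparc at 31.8, Col18a1 at 24.6, Bgn at 20.9 and Acta2 at 18.6 CPM per kb.

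Basement membrane genes were mostly higher. Of 9 tested, 7 rose and 2 did not pass, with a median log2 fold change of 1.02. Collagen IV, the sheet-forming collagen of basement membranes, is built from α1 and α2 chains in most tissues. Col4a1 (ENSMUSG00000031502, chromosome 8 of GRCm38 from 11198423 to 11312826) measured 65.4, 61.5 and 48.2 CPM in Cre– controls, against 105, 124 and 117 CPM in PTEC DN RAR mice. Its partner Col4a2 (ENSMUSG00000031503, chromosome 8 from 11312805 to 11449287) measured 41.8, 36.0 and 28.2 CPM and then 68.8, 86.1 and 73.4 CPM. For both chains the lowest PTEC DN RAR library lay well above the highest control. The log2 fold changes were 0.98 (SE 0.13, adjusted p = 0.000767) for Col4a1 and 1.10 (SE 0.15, adjusted p = 0.001) for Col4a2.

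The genes for these chains lie head to head and are transcribed away from each other, and their annotated start sites are 21 bases apart, so that the first 22 exonic bases overlap on opposite strands. The window around the Col4a2 start site (250 bases before to 50 after, RefSeq, GRCm38.p6, chr8:11312555-11312854, plus strand) is shown because this pair moved together. Capitals mark the 78 bases that also belong to the window of Col4a1 on the other strand.

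Col4a2: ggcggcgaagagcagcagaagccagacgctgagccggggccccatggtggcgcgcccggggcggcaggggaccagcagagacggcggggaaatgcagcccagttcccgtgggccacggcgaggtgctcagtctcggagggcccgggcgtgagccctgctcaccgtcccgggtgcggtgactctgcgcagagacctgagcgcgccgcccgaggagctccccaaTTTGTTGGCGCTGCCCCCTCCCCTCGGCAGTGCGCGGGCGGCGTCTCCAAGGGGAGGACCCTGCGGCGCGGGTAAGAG

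The letters CCAAT occur 32 bases before the Col4a2 start site in this window, and the last base of the match is the first base in capitals. Of the set, 25 genes had a window and some had more than one, 30 in all. Searched on both strands, CCAAT was found in 37.4% of 32851 windows of 300 bases genome-wide and in 9 of these 30. GGGCGG was found in 35.7% of all windows and in 17 of the 30, from 15 genes. TATAAA was found in 13.6% and in 6 of the 30, from 5 genes. Windows of the same gene can overlap, as those of Tnc did, and a site in the overlap was counted in each. The CArG box, the motif known to be bound by serum response factor, was searched only in its strict form. This is CC, then 6 letters that are each A or T, then GG, and variants of it were not searched. It was found in 1.63% of windows and in 1 of the 30, that of Lama2. The smooth muscle genes Myh11 and Tagln are among the 13 without a window and were not searched. Matches of different motifs were counted separately, and a match is a description of the letters only.

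Within each library, Col4a1 had 1.56, 1.71 and 1.71 counts for every count of Col4a2 in Cre– controls, against 1.53, 1.44 and 1.60 in PTEC DN RAR mice. On the log2 scale the mean ratio was 0.73 ± 0.07 (SD, n = 3) and 0.60 ± 0.08 (SD, n = 3), a difference of -0.13 with p = 0.2 in a two-sided exact permutation test, adjusted to 0.3 over 3 such ratios by the Benjamini-Hochberg method. With 3 mice against 3 no raw p under 0.1 is possible. The ratios of the genotypes overlapped.

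Col18a1 and Col15a1 encode the collagens that anchor basement membranes to the tissue around them, and the former is the precursor of endostatin. Col18a1 measured 86.8, 53.7 and 54.5 CPM in Cre– controls, against 129, 122 and 161 CPM in PTEC DN RAR mice. The log2 fold change was 1.08 (SE 0.19, adjusted p = 0.00342), and that of Col15a1, at 12.9 to 16.9 CPM and then 21.9 to 40.4 CPM, was 1.00 (SE 0.21, adjusted p = 0.00678). Among the laminin genes, Lamb1, the β1 chain, measured 44.9, 29.0 and 30.8 CPM and then 77.2, 62.8 and 105 CPM, a log2 fold change of 1.22 (SE 0.22, adjusted p = 0.0031). Lamc1, the γ1 chain that most laminin trimers share, measured 63.1, 66.1 and 73.9 CPM in Cre– controls, against 72.0, 68.6 and 70.8 CPM in PTEC DN RAR mice, with full overlap between genotypes. The interval of its log2 fold change at 95% ran from -0.14 to 0.25, which leaves out a 2-fold change in either direction. Lama2, the α2 chain of muscle and mesangial laminin and the least abundant of the 9 genes, measured 0.897, 1.48 and 0.665 CPM and then 3.44, 5.51 and 1.53 CPM, with a log2 fold change of 1.79 (SE 0.48, adjusted p = 0.0178).

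Nidogens bridge the laminin and collagen IV networks. Nid1 rose from 7.71 ± 2.02 CPM (SD, n = 3) to 15.6 ± 4.83 CPM (SD, n = 3), a log2 fold change of 1.02 (adjusted p = 0.0138). Nid2 measured 12.6, 16.4 and 18.0 CPM in Cre– controls, against 15.3, 12.2 and 22.2 CPM in PTEC DN RAR mice (log2 fold change 0.08, adjusted p = 0.792), and its genotypes overlapped. It shares 437 exonic bases with Rtraf on the opposite strand, and whether strand was used in the counting is not given in the sources used here. The calls of Lama2 and Nid1 were lost without Cre– control replicate 3 (adjusted p = 0.0729 and 0.0653), and that of Lama2 also without Cre– control replicate 1 or PTEC DN RAR replicate 2 (adjusted p = 0.0511 and 0.0586).

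Other basement membrane genes, a list separate from the 38, showed the same direction, with 19 of 22 higher, none lower (0) and a median log2 fold change of 1.40. The 3 largest changes among those with a mean of at least 1 CPM were in Lamc3 (2.61), Lama1 (2.12) and Col4a4 (1.73, a chain of the mature glomerular basement membrane).

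**Figure D2:**
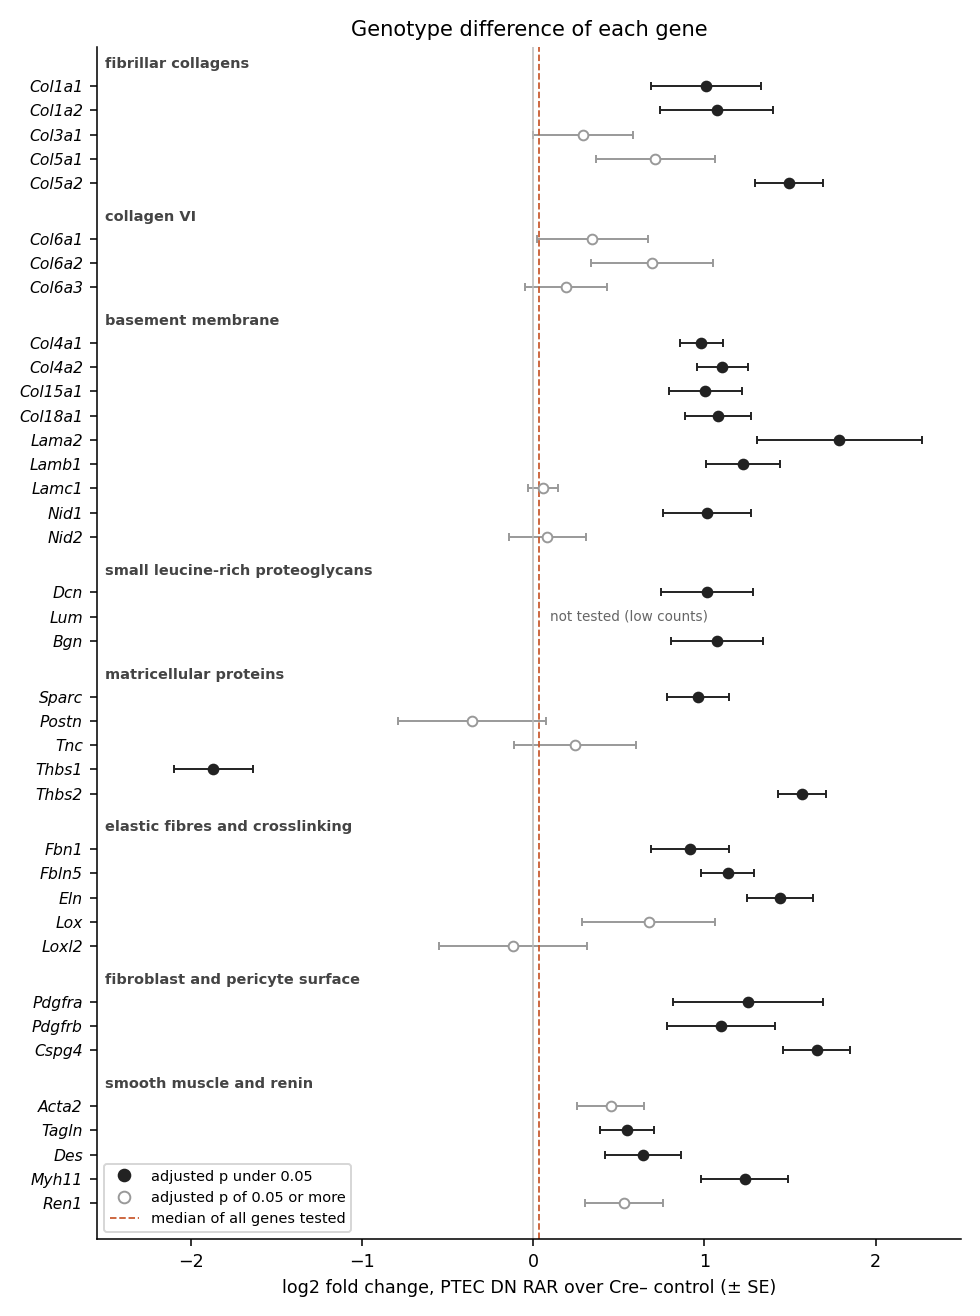
Log2 fold change of each gene with its SE, PTEC DN RAR over Cre– control, for 37 genes tested, with filled points for an adjusted p under 0.05 and a dashed line at the median of all genes tested. Basement membrane genes lie near 1 except Lama2 at 1.79 and Lamc1 and Nid2 near 0, collagen VI chains are all open points, and Thbs1 lies at -1.87.

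Fibrillar collagens varied widely among PTEC DN RAR mice. Of 5 tested, 3 were higher and 2 did not pass, and the median log2 fold change was 1.01. It was 0.64 without PTEC DN RAR replicate 2 and 1.28 without replicate 3, where the basement membrane median was 0.93 and 0.96. Type I collagen, the main fibril of scar, is a trimer of Col1a1 and Col1a2 products. Col1a1 (ENSMUSG00000001506, chromosome 11 from 94936224 to 94953042) measured 14.4, 14.0 and 10.6 CPM in Cre– controls, against 27.3, 38.01 and 13.6 CPM in PTEC DN RAR mice. Col1a2 (ENSMUSG00000029661, chromosome 6 from 4504814 to 4541544) measured 16.7, 16.7 and 16.03 CPM and then 35.7, 51.5 and 16.7 CPM. In both genes PTEC DN RAR replicates 1 and 2 were above every control, whereas replicate 3 was at the level of the controls. The log2 fold changes were 1.01 (SE 0.32, adjusted p = 0.0342) and 1.07 (SE 0.33, adjusted p = 0.0305).

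Both calls were lost without any 1 of Cre– control replicates 1, 2 and 3 and PTEC DN RAR replicates 1 and 2. The adjusted p was then between 0.0573 and 0.126 for Col1a1 and between 0.0673 and 0.0963 for Col1a2. The log2 fold changes fell to 0.64 and 0.67 without PTEC DN RAR replicate 2 and were 1.28 and 1.36 without replicate 3. The ratio of Col1a1 to Col1a2 counts was 0.868, 0.841 and 0.664 in Cre– controls, against 0.764, 0.738 and 0.815 in PTEC DN RAR mice. The difference in mean log2 ratio was -0.03 (two-sided exact permutation test, p = 0.9, adjusted 0.9), and the ratio of replicate 3, the library with low levels of both chains, lay inside the range of the controls.

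The window around the Col1a2 start site (RefSeq, GRCm38.p6, chr6:4505368-4505667, plus strand) is shown beside that of Col4a2, as the interstitial counterpart. Capitals mark the matches to CCAAT, one beginning 109 bases before the start site and one, on the opposite strand, at the start site itself.

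Col1a2: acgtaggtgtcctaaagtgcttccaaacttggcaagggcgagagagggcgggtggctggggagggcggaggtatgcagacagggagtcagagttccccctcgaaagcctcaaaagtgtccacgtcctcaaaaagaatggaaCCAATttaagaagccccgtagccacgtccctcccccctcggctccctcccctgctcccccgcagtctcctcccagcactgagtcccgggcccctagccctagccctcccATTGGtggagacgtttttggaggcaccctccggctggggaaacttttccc

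Col3a1 and Col5a2 are neighbours on chromosome 1, with 24.6 kb between their 3′ ends, and encode chains of thin and of fibril-nucleating collagens. Col3a1 measured 31.4, 32.1 and 27.4 CPM in Cre– controls, against 39.7, 52.3 and 19.3 CPM in PTEC DN RAR mice. Its PTEC DN RAR libraries thus lay on both sides of the controls (log2 fold change 0.29, SE 0.29, adjusted p = 0.457). The value turned on single libraries, being 0.56 (adjusted p = 0.0204) without PTEC DN RAR replicate 3 and -0.04 (adjusted p = 0.92) without replicate 2. Col5a2 measured 11.9, 11.6 and 8.74 CPM and then 22.0, 35.1 and 33.8 CPM, without overlap and without the low value in replicate 3. The log2 fold change was 1.50 (SE 0.20, adjusted p = 0.000937). For every Col5a1 count there were 4.11, 3.17 and 3.73 Col5a2 counts in Cre– controls, against 3.88, 5.42 and 13.7 in PTEC DN RAR mice. Col5a1, which encodes another chain of collagen V, measured 2.89, 3.66 and 2.34 CPM and then 5.66, 6.48 and 2.46 CPM, with replicate 3 again among the controls. It had a log2 fold change of 0.71 (adjusted p = 0.133), which was 0.99 (adjusted p = 0.0147) without PTEC DN RAR replicate 3 and 0.45 (adjusted p = 0.375) without replicate 2.

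The ratio of a basement membrane chain to a fibrillar chain was followed with Col4a1 and Col3a1. It was 2.08, 1.92 and 1.76 in Cre– controls, against 2.64, 2.37 and 6.07 in PTEC DN RAR mice, in counts. Every PTEC DN RAR library was above every control for this pair, in which Col3a1 is the fibrillar chain with the smallest change. The mean log2 ratio differed by 0.81, with an exact permutation p of 0.1 (two-sided, adjusted to 0.3), as low as this design allows. Without PTEC DN RAR replicate 3 the difference was 0.39. Other pairs, given with no test, did not separate the genotypes in this direction. Counts of Col4a1 for every count of Col1a1 were 4.53, 4.38 and 4.53 in Cre– controls, against 3.85, 3.26 and 8.64 in PTEC DN RAR mice, and for every count of Col1a2 they were 3.93, 3.69 and 3.01 and then 2.94, 2.40 and 7.03. In both pairs replicates 1 and 2 lay below the controls and replicate 3 above. The ratio to Col5a1 was 16.8 to 22.6 and then 18.5 to 47.7, with overlap, and that to Col5a2 was 5.31 to 5.51 and then 3.47 to 4.78, lower in every PTEC DN RAR library.

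Collagen VI forms beaded filaments close to the surface of fibroblasts. None (0) of its 3 chains tested passed the adjusted threshold. Col6a1, Col6a2 and Col6a3 had log2 fold changes of 0.35, 0.70 and 0.19 (adjusted p = 0.421, 0.15 and 0.552). In Col6a2, values were 3.48, 4.03 and 3.52 CPM in Cre– controls, against 6.36, 8.72 and 2.80 CPM in PTEC DN RAR mice, so that replicate 3 was below every control while replicates 1 and 2 were above. Col6a1 ranged from 3.86 to 6.81 CPM and from 3.92 to 9.36 CPM, and Col6a3 from 5.64 to 6.61 CPM and from 4.54 to 9.10 CPM, with overlap in both. Col6a2 had a log2 fold change of 0.99 (adjusted p = 0.00916) without PTEC DN RAR replicate 3 and of 0.31 (adjusted p = 0.5) without replicate 2.

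The small leucine-rich proteoglycans decorin, biglycan and lumican coat collagen fibrils. Dcn rose from 3.02 ± 0.909 to 6.10 ± 1.52 CPM and Bgn from 24.0 ± 5.16 to 50.6 ± 19.5 CPM (SD, n = 3 each), with log2 fold changes of 1.02 (adjusted p = 0.0167) and 1.08 (adjusted p = 0.0132) and no overlap between genotypes. Both calls were lost without Cre– control replicate 3 (adjusted p = 0.0706 and 0.061), and that of Dcn without PTEC DN RAR replicate 1 (adjusted p = 0.0627). Lum did not pass the filter over all 6 libraries, with 5, 1 and 4 counts in Cre– controls, against 29, 44 and 7 counts in PTEC DN RAR mice, replicate 3 again being the lowest. Without PTEC DN RAR replicate 3 it passed the filter and was higher (adjusted p = 0.00505). It passed there only through PTEC DN RAR replicates 1 and 2, where it was high, so this call adds no support. Without Cre– control replicate 1, 2 or 3 it was not called (adjusted p = 0.0543, 0.0818 and 0.0701).

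Surface receptors of fibroblasts and pericytes were higher in 3 of 3 genes. Cspg4 encodes NG2, a pericyte proteoglycan, and measured 3.10, 2.82 and 2.09 CPM in Cre– controls, against 7.57, 9.66 and 8.10 CPM in PTEC DN RAR mice. The groups were far apart, with a log2 fold change of 1.66 (SE 0.20, adjusted p = 0.000562). Pdgfrb, the receptor of pericytes and interstitial fibroblasts, measured 4.43, 5.57 and 3.45 CPM and then 8.24, 14.4 and 6.12 CPM (log2 fold change 1.10, adjusted p = 0.024). Pdgfra, a fibroblast receptor, measured 2.43, 2.35 and 1.71 CPM and then 4.78, 8.63 and 2.18 CPM, and its replicate 3 lay inside the range of the controls. Its log2 fold change of 1.26 (SE 0.44, adjusted p = 0.0481) lost its call without any 1 of Cre– control replicates 1 to 3 and PTEC DN RAR replicates 1 and 2 (adjusted p between 0.0804 and 0.176), and was 0.68 without PTEC DN RAR replicate 2. That of Pdgfrb did so without Cre– control replicate 1 or 3 or PTEC DN RAR replicate 2 (adjusted p = 0.0563, 0.0984 and 0.0652), with a log2 fold change of 0.68 without the last.

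Of 5 contractile and renin genes 3 were higher, with a median log2 fold change of 0.55. Myh11, the smooth muscle myosin heavy chain that marks mature vascular smooth muscle (ENSMUSG00000018830, chromosome 16 from 14194535 to 14291372), measured 13.8, 18.3 and 12.1 CPM in Cre– controls, against 22.4, 35.0 and 46.2 CPM in PTEC DN RAR mice. It had the largest change of the 5 (log2 fold change 1.24, SE 0.26, adjusted p = 0.00607). Acta2, smooth muscle actin and the customary marker of myofibroblasts, measured 29.9, 27.0 and 26.2 CPM and then 29.4, 32.8 and 51.4 CPM. Replicate 1 of the PTEC DN RAR mice lay within the range of the controls, and the log2 fold change of 0.45 (SE 0.19) did not pass (adjusted p = 0.0923, and 0.0404 without PTEC DN RAR replicate 1). Here replicate 3 was the highest library, not the lowest, and without it the log2 fold change was 0.13 (adjusted p = 0.429).

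Tagln encodes the actin-binding protein SM22α and Des the intermediate filament desmin. Tagln measured 14.8, 12.2 and 13.9 CPM and then 16.4, 19.1 and 24.3 CPM, and Des 1.87, 1.78 and 1.62 CPM and then 2.20, 2.99 and 3.03 CPM. In both every PTEC DN RAR library was above every control. They had log2 fold changes of 0.55 and 0.64 (adjusted p = 0.0247 and 0.0452). The call of Tagln was lost without Cre– control replicate 2 or 3 or PTEC DN RAR replicate 3 (adjusted p = 0.097, 0.0833 and 0.107, with a log2 fold change of 0.34 without the last), and that of Des without any 1 library but PTEC DN RAR replicate 1 (adjusted p between 0.0644 and 0.17). The call of Des also failed in DESeq2 (adjusted p = 0.0544). Ren1, renin of the juxtaglomerular cells, measured 8.58, 5.67 and 4.88 CPM and then 7.62, 10.7 and 9.49 CPM (log2 fold change 0.53, adjusted p = 0.0922). The log2 fold change was 0.81 (adjusted p = 0.0129) without Cre– control replicate 1 and 0.33 (adjusted p = 0.328) without Cre– control replicate 3. Its highest control lay above its lowest PTEC DN RAR library.

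**Figure D3:**
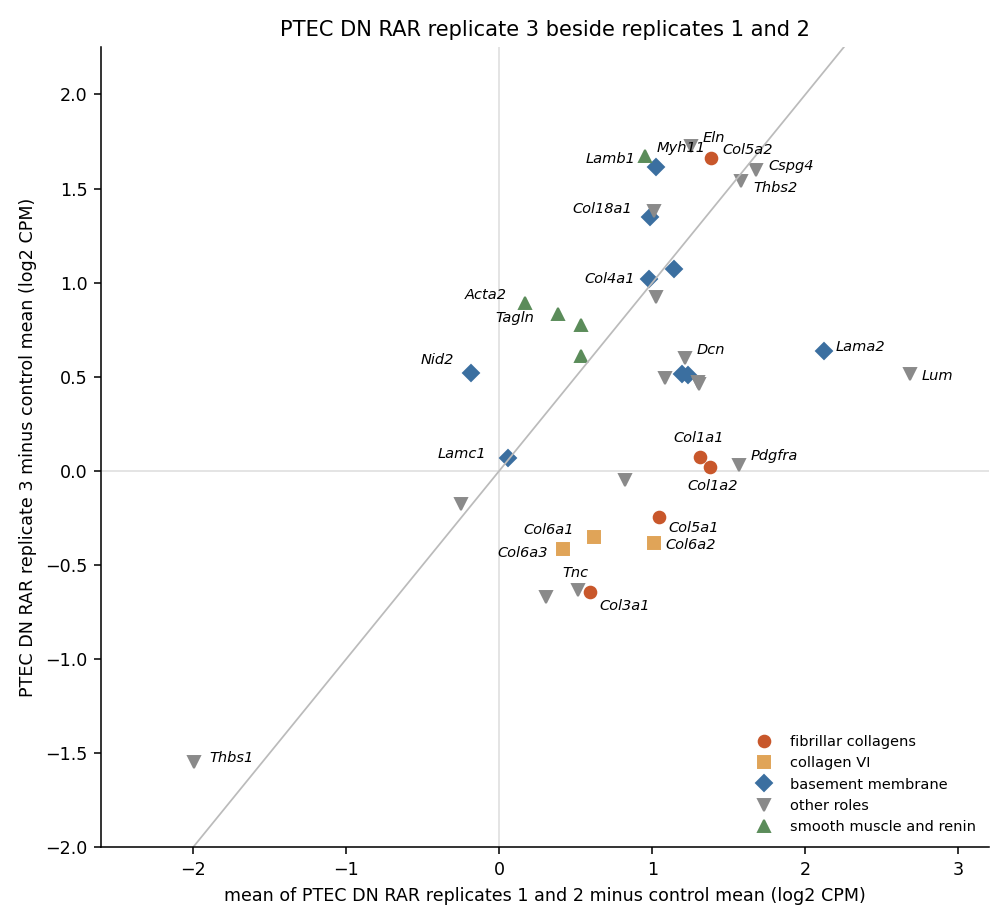
Each gene's log2 CPM in PTEC DN RAR replicate 3 (y axis) and the mean of replicates 1 and 2 (x axis), both minus the mean of the Cre– controls, with a line of equality. Fibrillar collagens other than Col5a2, collagen VI and Pdgfra lie below the line near or under 0 on the y axis, and smooth muscle genes lie above the line.

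PTEC DN RAR replicate 3 differed from replicates 1 and 2 in many genes, and whether role groups differed in this was not tested. It lay above every control in 25 of the 38 genes (39.0% of all genes tested), inside the control range in 7 (24.1%) and below every control in 6 (37.0%). Replicate 1 lay above every control in 29 and below in 1 (41.5% and 33.2% of all genes), and replicate 2 in 33 and 2 (41.0% and 34.5%). Among the PTEC DN RAR libraries replicate 2 was the highest in 25 of the 38 genes, and replicate 3 was the lowest in 19 and the highest in 10. Of the 9 basement membrane genes 8 were above every control in this library, as were 5 of 5 smooth muscle and renin genes, but 2 of 5 fibrillar collagens and 0 of 3 collagen VI chains. One of the fibrillar pair, Col1a2, was above by a margin of 16.68 over 16.67 CPM. The mean log2 CPM of the fibrillar collagens was 0.91, 1.37 and 0.17 above the mean of the controls in replicates 1, 2 and 3, that of the basement membrane genes 0.88, 1.02 and 0.81, and that of the smooth muscle and renin genes 0.32, 0.71 and 0.96. The basement membrane mean hides opposite deviations. On the log2 scale replicate 3 differed from the mean of replicates 1 and 2 by -1.48 in Lama2, -0.72 in Nid1 and -0.68 in Col15a1, by 0.70 in Nid2, 0.59 in Lamb1 and 0.36 in Col18a1, and by 0.04 and -0.07 in Col4a1 and Col4a2. The fibrillar chains had -1.24 in Col1a1, -1.36 in Col1a2, -1.24 in Col3a1 and -1.28 in Col5a1, but 0.28 in Col5a2. Endothelial markers in replicate 3, at 305 CPM, lay between the other PTEC DN RAR libraries, while its 25 pan-leukocyte genes, at 13898 CPM, were below the 15802 and 16369 CPM of replicates 2 and 1. Without replicate 3, 25 of 38 genes tested were higher, beside 19.1% of all genes. The 25 include Lum, which passed the low-count filter only through PTEC DN RAR replicates 1 and 2, where it was high.

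Elastic fibre genes were higher in 3 of 5. Eln, elastin of arterial walls, measured 3.82, 3.59 and 4.34 CPM in Cre– controls, against 8.27, 10.6 and 13.1 CPM in PTEC DN RAR mice (log2 fold change 1.44, SE 0.19, adjusted p = 0.000965). Fbln5, which links elastin to microfibrils and to integrins, measured 9.93 to 12.7 CPM and then 21.8 to 28.2 CPM, a log2 fold change of 1.14 (adjusted p = 0.00101). Fbn1, the fibrillin of microfibrils, measured 5.23 to 7.28 CPM and then 8.94 to 15.98 CPM, a log2 fold change of 0.92 (adjusted p = 0.0128, and 0.0631 without Cre– control replicate 3). The lysyl oxidases Lox and Loxl2, which crosslink collagen and elastin, did not pass. Lox measured 1.55 to 2.05 CPM in Cre– controls, against 1.80 to 5.04 CPM in PTEC DN RAR mice (adjusted p = 0.193). Loxl2 measured 1.81 to 5.43 CPM and 1.76 to 3.58 CPM (adjusted p = 0.85), a log2 fold change whose 95% interval ran from -1.10 to 0.87.

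Matricellular proteins regulate cell contact with the matrix without forming its frame, and their genes went in both directions, with 2 higher, 1 lower and 2 not passing. Thbs1 encodes thrombospondin 1, a product of platelets and activated monocytes that can activate latent TGF-β. Thbs1 (ENSMUSG00000040152, chromosome 2 from 118111876 to 118127133) measured 1714, 1108 and 1996 CPM in Cre– controls, against 436, 350 and 533 CPM in PTEC DN RAR mice. Every PTEC DN RAR library was far below every control. The log2 fold change was -1.87 (SE 0.23, adjusted p = 0.000691), a 3.65-fold lower level. Thbs1 took 65.6% to 80.0% of the CPM of the whole set in Cre– controls, against 23.8% to 34.6% in PTEC DN RAR mice.

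Its paralog Thbs2, a fibroblast product, went the other way. Thbs2 measured 5.46, 4.66 and 4.24 CPM in Cre– controls, against 13.8, 14.9 and 14.0 CPM in PTEC DN RAR mice, with close replicates in both genotypes (log2 fold change 1.57, SE 0.14, adjusted p = 0.000225). For each count of Thbs2 there were 314, 238 and 470 counts of Thbs1 in Cre– controls, against 31.5, 23.5 and 38.2 in PTEC DN RAR mice. Sparc, a collagen-binding glycoprotein of endothelium and stroma, measured 34.9, 49.1 and 28.7 CPM and then 67.7, 82.0 and 69.4 CPM (log2 fold change 0.96, adjusted p = 0.00406). Tnc and Postn, both known from activated fibroblasts, were low and overlapped between genotypes. Tnc measured 2.69 to 3.74 CPM and 1.97 to 5.77 CPM (adjusted p = 0.611), and Postn 0.359 to 1.14 CPM and 0.471 to 0.621 CPM (adjusted p = 0.54).

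Markers of blood cells that can carry Thbs1 were set beside it. Of 7 genes of infiltrating monocytes, a list chosen after the values of Thbs1 had been seen, 6 were lower and their sum was 2385 to 2617 CPM in Cre– controls, against 1170 to 1342 CPM in PTEC DN RAR mice. The 6 platelet markers summed to 281 to 414 CPM in Cre– controls and 39.6 to 51.9 CPM in PTEC DN RAR libraries. Most of this sum was Pf4 alone, at 258 to 383 CPM and then 32.3 to 44.0 CPM, so the sum does not describe the 6 genes alike. Of the 6 markers 4 were tested. Pf4 and Ppbp were lower (log2 fold changes -3.10 and -4.35), Itgb3 was higher (0.72) and Itga2b overlapped at 0.973 to 2.33 CPM. The platelet receptor genes Gp9 and Gp1bb were at or near 0 in every library, at most 0.64 CPM. The part of either cell type in the level of Thbs1 was not tested.

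**Figure D4:**
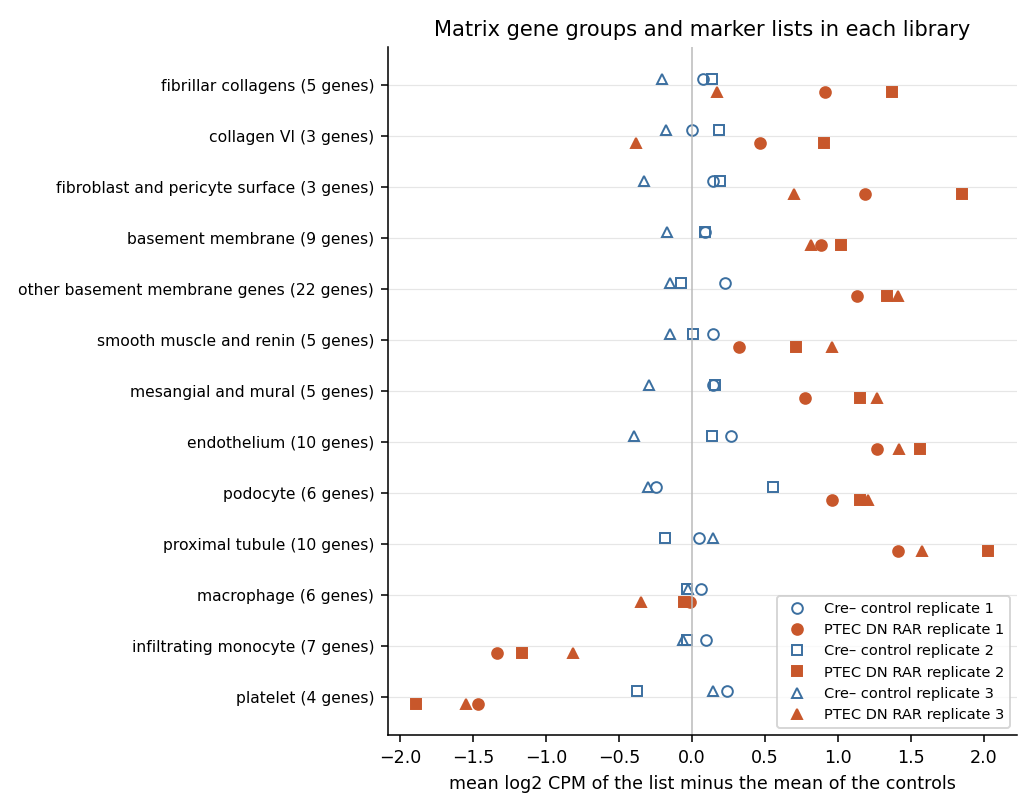
Mean log2 CPM of role groups and marker lists in each library, minus the mean of the 3 Cre– controls, with open blue symbols for Cre– controls and filled orange symbols for PTEC DN RAR mice. Fibrillar collagens and collagen VI spread widely among PTEC DN RAR libraries with replicate 3 the lowest. The mean of the basement membrane genes lies between 0.81 and 1.02, an average over genes of which some are lowest and some highest in replicate 3. The means of monocyte and platelet markers lie below the controls. Of the 4 platelet genes averaged, Pf4 and Ppbp are lower, Itgb3 is higher and Itga2b overlaps.

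Other genes of the same pathways were counted from lists kept separate from the 38, to be read beside the 23.6% higher and 17.1% lower over all genes. Of 25 enzymes and chaperones of procollagen processing, 23 were tested, 9 were higher and 5 lower (median log2 fold change 0.43), and the largest changes were in the collagen galactosyltransferase gene Colgalt2 (2.04), the prolyl hydroxylase gene P3h2 (1.91) and Pcolce (1.84). Other stromal and mural markers had 9 of 16 tested higher and 0 lower, led by Cxcl12 (1.54), Notch3 (1.47) and Lmod1 (1.40). This list holds all 6 mesangial and mural markers given above, so 4 of its 9 higher genes are the same genes. Of 20 other interstitial matrix genes tested, 7 were higher (35.0%) and 4 were lower. Among them Fn1, fibronectin, was lower by 1.80 on the log2 scale, from 1387 ± 281 to 398 ± 124 CPM (SD, n = 3 each), and Ecm1 had a log2 fold change of -2.05, whereas Col12a1 had one of 1.76. Of 25 genes of TGF-β and PDGF signalling, 8 were higher (32.0%) and 2 lower, among them Tgfbr3 (1.63) and the latent TGF-β binding protein gene Ltbp4 (1.81). Ltbp2, which encodes another such protein, had a fitted value of 3.90 that rests on very low controls, at 0.487, 0.335 and 0.127 CPM, against 4.71, 8.22 and 1.74 CPM in PTEC DN RAR mice. Of 22 matrix receptors tested, 8 were higher (36.4%) and 5 lower, and the leading ones were Sdc2 (1.57), the collagen receptor Ddr1 (1.25) and the collagen-binding integrin Itga1 (1.23).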

How the data were processed

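The authors sequenced polyA RNA (RIN above 7.9) of magnetically sorted kidney CD11B+ cells from 3 PTEC DN RAR mice and 3 Cre– controls. The deposited table holds raw counts of reads per Ensembl gene, 1 column per mouse, with no column of another sample. The submitters' processing notes list STAR 2.5.0a, HTSeq 0.6.1, edgeR and limma and the build GRCm38, and the annotation release and strand setting are not given in the sources used here. Reads aligned to more than 1 place (42.9% to 47.8% of all tallied alignments), reads of several genes (at most 0.527%) and reads of no gene (2.39% to 3.97%) stand in 5 summary lines and were left out of library totals, which lowers the counts of genes that have a close copy. Of 46612 gene lines, 9 repeats with equal counts were collapsed.

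Low genes were removed by filterByExpr. TMM factors set the scale, and edgeR 4.0.16 (R 4.3.3) gave the quasi-likelihood test through glmQLFit and glmQLFTest. All p-values of the 15440 genes were adjusted together by the Benjamini-Hochberg method. The SE is the log2 fold change divided by the square root of F, and list means use log2 CPM with a prior count of 2. Chain ratios were taken from counts plus 0.5 and tested by exact permutation. Alternatives used DESeq2 1.42.0, limma 3.58.1, other scalings and filters, the replicate number as a block and leaving out each mouse. The tests were tried on simulated data. Libraries of 1 genotype differed by a chi-square per degree of freedom of at least 29.6, so none was counted as a repeat. Nothing beyond the labels says how the mice were matched, so p-values measure the spread between these 6 samples. Coordinates are from GENCODE M21 and promoter windows from RefSeq (25 of 38 genes matched), both on GRCm38. Figures were drawn with matplotlib 3.10.9. The 38 genes and the lists were chosen with earlier results of these data known. All 38 are accounted for. Of each further list of matrix, stromal or signalling genes, 3 genes are named. These have the largest changes among those with an adjusted p under 0.05 and a mean of at least 1 CPM. For the lists of markers of single cell types and of pan-leukocyte genes this was not done. Of the 38, 16 share exonic bases with a gene on the opposite strand, whose reads cannot be told apart if strand was not used.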

Additional observations from a re-analysis of the deposited data

How the results depend on the processing

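Each result was recomputed under 14 alternatives (7 for the chain ratios). Of the 24 genes called, 12 higher genes and Thbs1 passed under all 14, 11 lost the call under at least 1, and no called gene changed direction (0 values). Of the genes tested and not called, 5 passed under at least 1 alternative, among them Col5a1, Acta2 and Ren1 with pan-leukocyte scaling (adjusted p = 0.0489, 0.0444 and 0.0382). That scaling moved the median log2 fold change of the basement membrane genes to 1.21, and over all genes 737 were then lower in place of 2636. With limma-voom 19 genes were higher, and Col1a1, Col1a2, Pdgfra and Des did not pass (adjusted p = 0.0896, 0.0893, 0.144 and 0.0553). Des, which passed under 4 of 14 alternatives, also failed with DESeq2 (0.0544), with its size factors (0.0578) and with no filter (0.0806), and Pdgfra with those size factors (0.0532).

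Leaving out 1 library at a time, the count of genes higher was lowest at 12 (without Cre– control replicate 3, beside 15.2% of all genes). It was highest at 25 (without PTEC DN RAR replicate 3, with Lum included, beside 19.1% of all genes). The count of genes lower stayed at 1. The median log2 fold change ranged from 0.85 to 1.07 for basement membrane genes, from 0.64 to 1.28 for fibrillar collagens and from 0.43 to 0.69 for smooth muscle and renin genes. The difference in log2 ratio ranged from 0.39 to 1.07 for Col4a1 to Col3a1, from -0.17 to -0.09 for Col4a1 to Col4a2 and from -0.15 to 0.05 for Col1a1 to Col1a2. The cause of these shifts was not tested. Replicate numbers join different animals, and their deviations from the group means correlated at -0.01, 0.21 and 0.03. From 3 libraries per genotype it cannot be told whether the numbers pair the mice. With the replicate number as a block 22 genes were higher and 1 lower, and of the called genes Des alone lost its call (adjusted p = 0.0777). Lum failed the filter over all 6 libraries and is in none of the tallies of genes that lost or gained a call. It was tested and higher with no filter (adjusted p = 0.00947) and without PTEC DN RAR replicate 3 (0.00505). In the latter setting it passed the filter only through PTEC DN RAR replicates 1 and 2, where it was high, so that call adds no support. Without Cre– control replicate 1, 2 or 3 it was not called (0.0543, 0.0818 and 0.0701).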
